A study of Mus musculus with 8 samples.

Results

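The 10 genes described here encode contactins (Cntn1, Cntn2, Cntn3, Cntn4, Cntn5 and Cntn6) and contactin-associated proteins (Cntnap2, Cntnap5a, Cntnap5b and Cntnap5c). They were taken by name from the 21631 protein-coding genes of chromosomes 1 to 19 and X in RefSeq's GRCm38.p6 table, the assembly of mm10. An open-chromatin peak was assigned to a gene when its summit lay in the gene or within 5 kb of it. Of 430912 peaks in lists of equal length, 1541 were assigned to the 10 genes, and all 10 genes passed the filter of a mean of at least 1 peak per library.

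The peaks came from ATAC-seq, in which the transposase Tn5 cuts and tags accessible DNA, of neurons that had been purified from amygdala tissue of C57BL/6J males. An adeno-associated virus (AAV) had carried a guide RNA into the amygdala, directed at Nr2f2 (sgNr2f2, 4 libraries) or at the Rosa26 locus as the control (sgRosa, 4 libraries). More than 2 weeks later the mice of both groups went through 7 days of tube restraint, then fear conditioning (1 day) and extinction (3 days), so every library comes from stressed animals and none from unstressed ones. Nr2f2 encodes COUP-TFII, a nuclear receptor that binds DNA, and the study asked how its knockdown bears on neuronal chromatin accessibility. The CRISPR effector and its promoter, the mice's age and the share of neurons that took up virus are not given in the sources used here. Peak lists hold no RNA, so the extent of the knockdown was not measured here.

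Contactins are cell adhesion proteins of the immunoglobulin superfamily that are held to the outer face of the membrane by a lipid anchor, and contactin-associated proteins are membrane-spanning relatives of the neurexins. On myelinated axons both families organise the contacts beside the nodes of Ranvier, and elsewhere in the brain they take part in axon guidance and synapse formation. Most of their genes are very long and consist largely of introns.

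In mm10 the genes lie on 5 chromosomes. Cntnap2 (chr6:45060061-47301393, plus strand), Cntn3 (chr6:102163304-102564614, minus), Cntn6 (chr6:104492662-104863406, plus) and Cntn4 (chr6:105677632-106700141, plus) are on chromosome 6. Cntnap5b (chr1:99772246-100490599, plus), Cntnap5a (chr1:115684737-116587323) and Cntn2 (chr1:132509425-132543251, minus) are on chromosome 1. Cntn5 (chr9:9634223-10904775, minus), Cntn1 (chr15:92051152-92341967, plus) and Cntnap5c (chr17:57769074-58417953) are alone on theirs.

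The libraries differed in list length. They held 103939, 97620, 63213 and 53864 peaks in sgNr2f2 libraries 1 to 4, and 63648, 62348, 60880 and 143405 peaks in sgRosa libraries 1 to 4, counted after several summits of 1 interval had been reduced to the strongest. Read depth is unknown because the lists carry no read totals. The strongest 53864 peaks of each library by the authors' −log10 p were therefore used unless the full lists are named. Peaks tied at the cut were kept in the order of the deposited list. The 8 neuronal marker genes together held 28 to 44 peaks per sgNr2f2 library and 37 to 57 per sgRosa library. The 4 astrocyte markers held 5 to 10 peaks per sgNr2f2 library and 1 to 6 per sgRosa library. The 4 oligodendrocyte markers held 3 to 10 per sgNr2f2 library and 1 to 8 per sgRosa library, and the 4 microglial markers 3 to 6 per sgNr2f2 library and 2 to 3 per sgRosa library. The neuronal mean was lower in sgNr2f2 libraries, 36.0 ± 7.30 against 47.0 ± 9.97 in sgRosa libraries (SD, n = 4 each). The other means were higher in sgNr2f2 libraries, at 7.5 against 3.5 for astrocyte, 6.0 against 3.5 for oligodendrocyte and 4.75 against 2.5 for microglial markers. Per Mb, neuronal markers held 27.2 peaks, astrocyte markers 41.4, oligodendrocyte markers 24.1 and microglial markers 22.0, and in no library did more than 2 genes of a list carry a peak within 1 kb of an end. These lists therefore do not set neuronal markers apart from those of other cell types, and the part of cell composition in the values below was not tested.

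The peaks at the 10 genes were weak ones. Their median −log10 p was 3.88, as for all peaks of the equal lists, and their median fold enrichment over background was 2.79 in both sets. These are the authors' own values for each peak. A q below 0.05 was given to 14.3% of them, against 14.98% of all peaks, and the median width was 173 bp, against 171 bp. The highest −log10 p at any of the genes was 9.30, whereas the highest in the whole set was 4604. The peak with 9.30 lay inside Cntn1 at chr15:92157395-92157597 in sgRosa library 1, 106 kb from the start-site end of the gene, with a fold enrichment of 3.97. The next by −log10 p were at 8.40 in Cntnap5a in sgNr2f2 library 2, at 8.21 in Cntn6 in sgRosa library 3 and at 7.98 in Cntnap2 in sgRosa library 4. None of the 4 strongest lay within 100 kb of the low-coordinate or start-site end of its gene.

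Few start sites carried a peak, at these genes as over the genome. RefSeq's GRCm38.p6 promoter table, with windows from 250 bases before to 50 after each start, gave 13 windows for 8 of the genes, and 2 of the 13 were overlapped by a peak in the equal lists. Of all 32619 promoter windows on the same chromosomes, 4239 (13.0%) were overlapped in at least 1 library. Both overlapped windows, those of Cntn1 and Cntnap5b, are shown because they are the starts of the set with a peak, and a Cntn5 window is shown because Cntn5 is the gene whose counts separate the groups below. Letters run 5′ to 3′ on the gene's strand, and capitals mark the bases covered by a peak of sgNr2f2 library 3.
Cntn1, chr15:92050915-92051214, plus strand: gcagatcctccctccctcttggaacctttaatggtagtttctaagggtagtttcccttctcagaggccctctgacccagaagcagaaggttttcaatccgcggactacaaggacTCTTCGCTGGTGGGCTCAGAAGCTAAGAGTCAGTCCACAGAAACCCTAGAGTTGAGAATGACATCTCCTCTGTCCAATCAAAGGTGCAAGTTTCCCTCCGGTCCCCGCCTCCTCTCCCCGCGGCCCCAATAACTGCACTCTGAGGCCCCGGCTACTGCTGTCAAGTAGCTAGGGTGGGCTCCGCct
Cntnap5b, chr1:99772151-99772450, plus strand: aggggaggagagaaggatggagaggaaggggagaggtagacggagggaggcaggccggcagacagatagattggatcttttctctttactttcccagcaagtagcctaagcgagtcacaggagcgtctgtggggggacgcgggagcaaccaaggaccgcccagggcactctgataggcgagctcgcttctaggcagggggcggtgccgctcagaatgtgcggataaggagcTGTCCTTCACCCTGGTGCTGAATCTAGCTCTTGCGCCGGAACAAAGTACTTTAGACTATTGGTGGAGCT
Cntn5, chr9:10904726-10905025, minus strand, no peak: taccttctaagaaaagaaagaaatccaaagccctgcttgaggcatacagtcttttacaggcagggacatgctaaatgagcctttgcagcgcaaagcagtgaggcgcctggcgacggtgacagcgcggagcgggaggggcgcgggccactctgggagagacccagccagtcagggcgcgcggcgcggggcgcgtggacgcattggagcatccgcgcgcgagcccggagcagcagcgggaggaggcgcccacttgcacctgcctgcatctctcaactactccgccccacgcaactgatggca

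The peak in the Cntn1 window (chr15:92051029-92051212) covered bases 115 to 298 of it, with a −log10 p of 3.34, a q of 0.251 and a fold enrichment of 2.49. The peak in the Cntnap5b window (chr1:99772382-99772531) covered its last 69 bases with the same 3 values. Both were in 1 of the 8 libraries, and neither passed a q of 0.05. In the full lists sgRosa library 4 also had a peak over the last 38 bases of the Cntnap5b window, with a −log10 p of 3.19. The motif AGGTCA, to which receptors of the NR2F group are known to bind, was searched on both strands (TGACCT on the other). It was in none of the 13 windows and in 5340 of all 32851 windows (16.3%), and the direct repeat of it with 1 base between copies was in none of the 13 and in 13 of all windows (0.0396%). The absence says only that these letters are not in these windows.

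Taken at both ends of each gene, 11 peaks (0.714% of those at the 10 genes) had a summit within 1 kb of an end, 6 in sgNr2f2 libraries and 5 in sgRosa libraries. They were at 9 of the 10 genes, and Cntn5 had none. Besides Cntn1 and Cntnap5b, Cntn2 had one 753 bp from its start-site end in sgNr2f2 library 3, Cntn6 had one 16 bp from it in sgRosa library 1 and Cntn3 had one 618 bp from it in sgRosa library 3. The Cntn6 peak, at chr6:104492608-104492757, lay outside the promoter window of the gene, whose annotated start is at 104493044. Cntn4 had 3 at its far end, in sgNr2f2 library 4 and in sgRosa libraries 1 and 3. Only the peak at the low-coordinate end of Cntnap5c in sgRosa library 3 (chr17:57769578-57769806) had a q below 0.05, at 0.0103. The remaining peaks lay inside the genes or up to 5 kb beyond them.

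**Figure D1:**
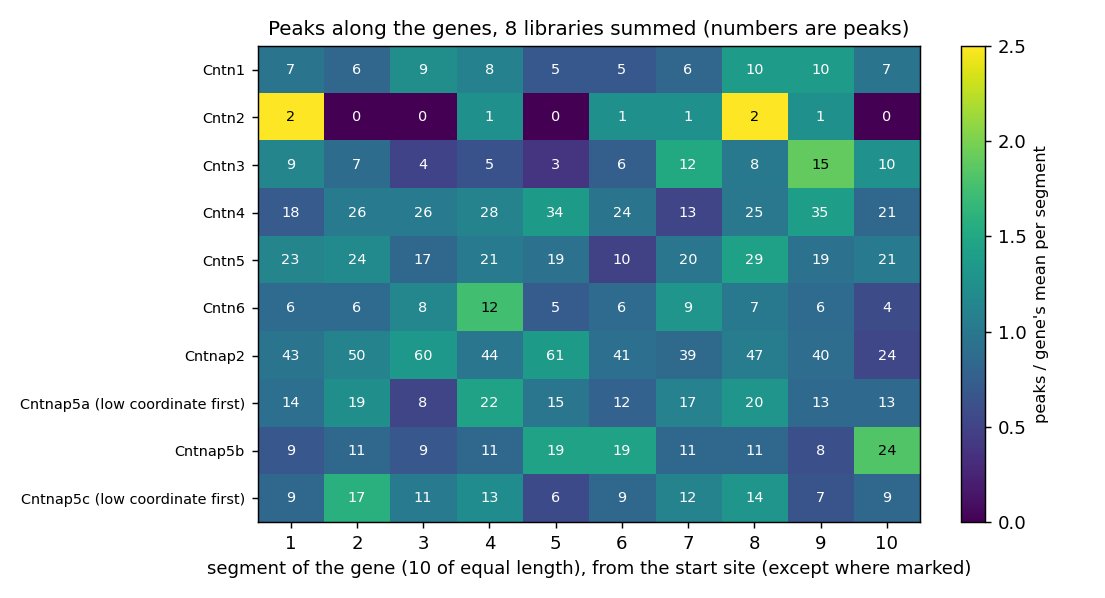
Peaks along each gene in 10 segments of equal length, summed over the 8 libraries, with rows for genes and columns for segments from the start site (from the low coordinate for Cntnap5a and Cntnap5c). Numbers are peaks and colour is the number divided by the gene's mean per segment, with the scale ending at 2.5. Peaks were spread over the whole of the long genes, for example 24 to 61 per segment in Cntnap2.

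Along the genes the peaks were spread out, as the map of peaks by segment shows. Cntnap2, which encodes Caspr2, a partner of potassium channels beside the node, had 449 summits inside its 2241 kb, from 61 in segment 5 to 24 in segment 10. Its first 5 segments held 258 of them (57.5%), with 56.9% in the sgNr2f2 libraries and 57.8% in the sgRosa libraries. Cntn4 had 35 summits in segment 9 and 13 in segment 7. Cntn5 had 29 in segment 8 and 10 in segment 6, and Cntnap5b had 24 in segment 10, against 13.2 on average. Of those 24, sgRosa library 2 gave 8. Cntn3 was the most uneven of the genes with over 50 summits by share, with 28 of 79 (35.4%) in the first 5 segments. That share was 46.7% of 30 in sgNr2f2 libraries and 28.6% of 49 in sgRosa libraries. These are counts summed over libraries, with no test.

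The number of peaks followed gene length. Over the 10 genes, length and total peaks in the 8 libraries had a Pearson correlation of 0.978, a description across genes that share the same libraries. The shortest, Cntn2 (33.8 kb), had 10 peaks in all and the longest, Cntnap2, had 450. Per Mb the genes ranged between 20.01 in Cntn5 and 30.9 in Cntn4, with a median of 23.8. The median was 27.5 over all 8077 genes tested and 23.3 over the 217 of at least 500 kb, 6 of which are among the 10.

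Each gene was next set against 1 Mb on either side, to see whether peaks were denser inside it than around it. Of the 10 genes, 7 were denser and 3 sparser on average, where 69.9% of all 8077 genes tested were denser and 30.1% sparser, so the direction did not set the 10 genes apart. At an unadjusted exact p under 0.05, 2 of the 10, Cntn4 and Cntn3, were denser. Over all genes tested that background was 5.67% for denser and 2.51% for sparser, and no gene passed Benjamini-Hochberg adjustment, the smallest adjusted p being 0.451. Cntn4, an adhesion molecule that in mouse binds the amyloid precursor protein App, had 30.9 ± 8.81 peaks per Mb, against 22.0 ± 9.40 in its flanks (SD, n = 8). It was denser in 7 of 8 libraries by 8.87 peaks per Mb on average (two-sided exact sign-flip permutation p = 0.0156, adjusted p = 0.466). Leaving out any 1 library kept that p between 0.0156 and 0.0313, but it was 0.0703 with flanks of 500 kb and 0.195 with only peaks of q under 0.05.

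Cntn3, a contactin found on neurons, had 24.6 ± 13.4 peaks per Mb, against 19.75 ± 10.5 in its flanks (SD, n = 8), and was also denser in 7 of 8 libraries. Its exact p was 0.0391 (sign-flip permutation, adjusted p = 0.573), and it rose as far as 0.0781 when 1 library was left out, passing 0.05 without any of the sgRosa libraries or without sgNr2f2 library 2. In the full lists it was 0.164, with peaks ordered by fold 0.0703, with flanks of 2 Mb 0.281 and with only peaks of q under 0.05 0.312, all by the same permutation. Cntnap2 was denser in 7 of 8 libraries too, with 25.0 ± 10.9 peaks per Mb, against 18.8 ± 4.21 in its flanks (SD, n = 8, exact permutation p = 0.0703). Its difference from the flanks, 6.17 peaks per Mb, was 7.65 without sgNr2f2 library 3, the only library in which the gene was sparser. The difference was 3.39 (p = 0.141) without sgRosa library 1 and 0.924 (p = 0.586) with the strongest 26932 peaks, by the same permutation. With flanks of 500 kb that p was 0.0469, with flanks of 2 Mb 0.148 and with only peaks of q under 0.05, where the gene was sparser, 0.711. The sparser genes were Cntnap5c, with 20.7 ± 9.18 peaks per Mb, against 24.75 ± 5.12 in its flanks, Cntnap5a, with 21.1 ± 7.61, against 22.25 ± 11.1, and Cntn6, with 23.0 ± 15.6, against 23.3 ± 8.18. Cntn1, Cntn2, Cntn5 and Cntnap5b were denser by 1.26 to 8.94 peaks per Mb with exact p values between 0.203 and 0.727 by the same permutation. The flanks of Cntn4 and Cntn6 reach into each other's gene on chromosome 6, so those comparisons share sequence.

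**Figure D2:**
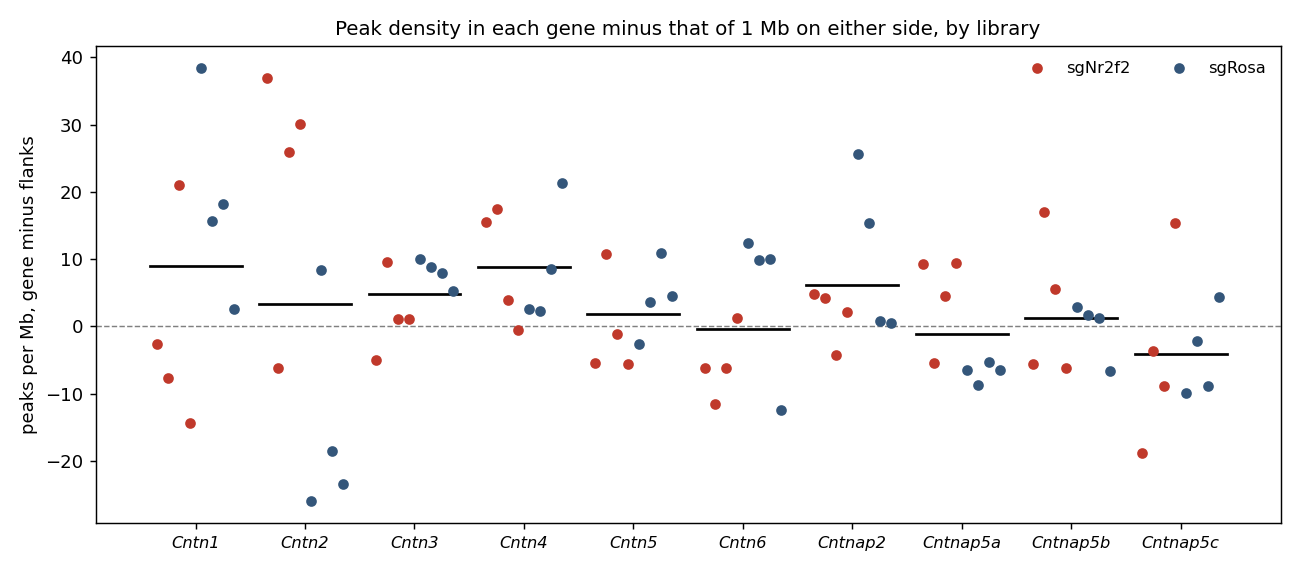
Peaks per Mb in each gene and 5 kb around it minus peaks per Mb in 1 Mb on either side, with 1 point per library, sgNr2f2 left and sgRosa right, and a bar at the mean of the 8 libraries. Cntn3, Cntn4 and Cntnap2 are above 0 in 7 of 8 libraries, and Cntnap5a is below 0 in every sgRosa library and above 0 in 3 of 4 sgNr2f2 libraries.

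The sgNr2f2 libraries had fewer peaks at most of the 10 genes than the sgRosa libraries. Summed over the genes, sgNr2f2 libraries 1 to 4 had 155, 204, 126 and 137 peaks, and sgRosa libraries 1 to 4 had 299, 226, 194 and 200. The sums overlapped between groups through sgNr2f2 library 2, with 155.5 ± 34.5 peaks in sgNr2f2 libraries and 229.75 ± 48.2 in sgRosa libraries (SD, n = 4 each), a ratio of 0.677. As a share of the list that was 0.289% ± 0.0640 in sgNr2f2 libraries and 0.427% ± 0.0895 in sgRosa libraries. The other 211 genes of at least 500 kb had 4027 ± 293 peaks in sgNr2f2 libraries and 4190 ± 211 in sgRosa libraries, a ratio of 0.961. No test was made of the sum, since the genes had been chosen with earlier results known.

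Gene by gene, 7 of the 10 had a lower mean in sgNr2f2 libraries and 3 a higher one. Of all 8077 genes tested 36.5% had a lower mean and 54.2% a higher one, and of the 217 long genes 51.6% had a lower mean and 47.5% a higher one. The median difference in peaks per library was -5.375 over the 10 genes, 0.25 over all 8077 genes tested and -0.25 over the 217 long genes. These are differences in counts, which depend on how many peaks a gene has, so the medians are not on 1 scale. Of the 8077 genes, 3593 had a mean of at least 2 peaks per library. A gene was called when the two-sided exact permutation p over the 70 assignments of libraries was under 0.05, which with 4 against 4 means that the groups did not overlap and gives the smallest possible p, 0.0286. By that rule 1 of the 10 was called lower and none higher, where 0.508% of all genes tested were called lower and 1.26% higher. Among the long genes alone 2.76% were called lower and 1.84% higher. No gene can pass adjustment over all genes in this design, and every adjusted p was 1.

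**Figure D3:**
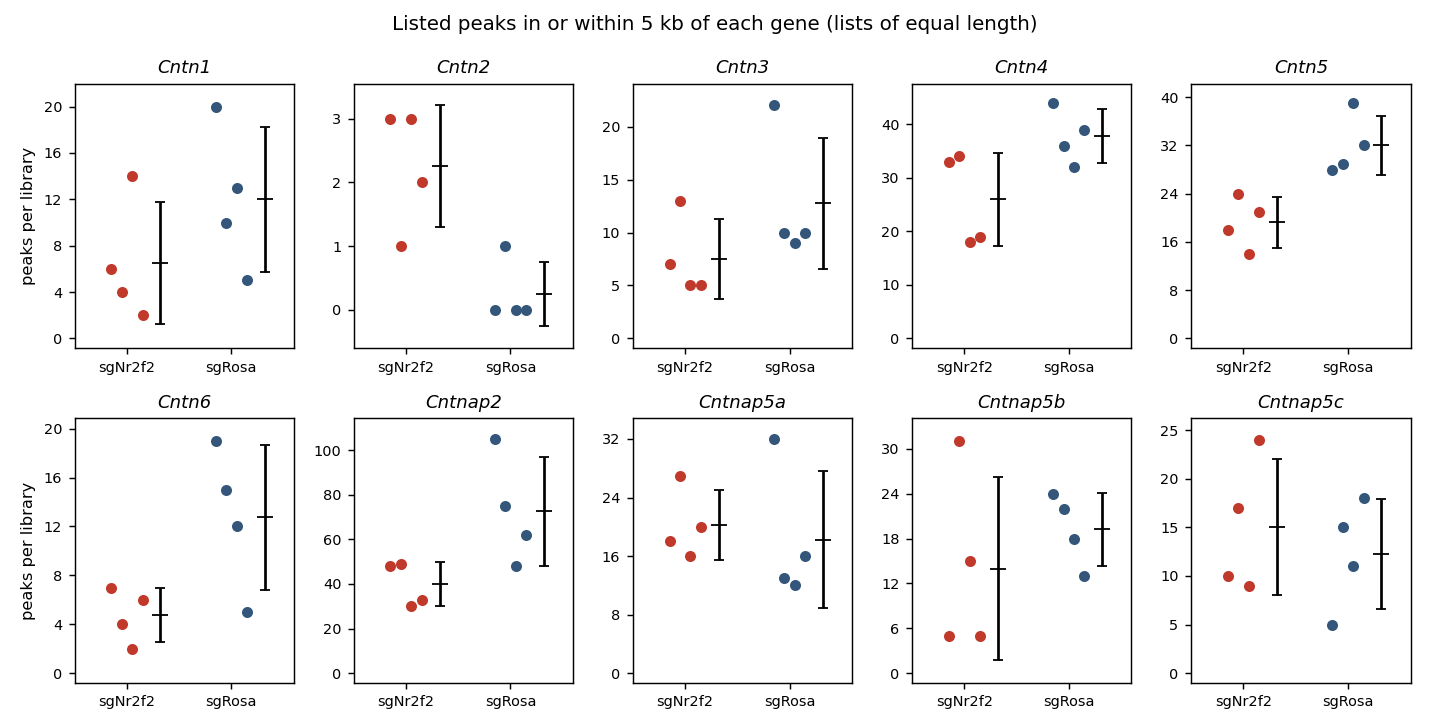
Peaks in or within 5 kb of each gene per library in lists of equal length, sgNr2f2 left and sgRosa right, with 1 point per library and the mean ± SD beside the points (n = 4 each). At Cntn5 all 4 sgNr2f2 libraries (14 to 24 peaks) lie below all 4 sgRosa libraries (28 to 39 peaks), and at the other genes the groups overlap or touch.

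Cntn1, Cntn2 and Cntnap2 belong to the contacts beside the node of Ranvier. Cntn1, which joins the axon to the myelinating cell at the paranode, had 6, 4, 14 and 2 peaks in sgNr2f2 libraries 1 to 4 and 20, 10, 13 and 5 in sgRosa libraries 1 to 4. The groups overlapped widely (difference -5.5, exact permutation p = 0.286). Cntn2, which partners Cntnap2 at the juxtaparanode, had 3, 1, 3 and 2 peaks in sgNr2f2 libraries and 0, 1, 0 and 0 in sgRosa libraries. The groups touched at 1 peak, with means of 2.25 ± 0.957 and 0.25 ± 0.5 (SD, n = 4 each, exact permutation p = 0.0571), and 7 of the 8 summits inside this short gene were in sgNr2f2 libraries. Cntn2 passed the filter of a mean of at least 1 peak only through its sgNr2f2 libraries. Its higher count in them is therefore no support for a difference. Without sgNr2f2 library 2 the difference was 2.42, and the groups came apart because no other sgNr2f2 library touched the sgRosa values.

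Cntnap2 had 48, 49, 30 and 33 peaks in sgNr2f2 libraries 1 to 4 and 105, 75, 48 and 62 in sgRosa libraries 1 to 4. The groups overlapped only through sgRosa library 3, which tied with the first of the sgNr2f2 libraries and was below the second. The means were 40.0 ± 9.90 in sgNr2f2 libraries and 72.5 ± 24.3 in sgRosa libraries (SD, n = 4 each), a ratio of 0.552 with an exact permutation p of 0.0857. The difference of -32.5 peaks per library was the most negative of all 8077 genes tested, in a gene among the longest. Without sgRosa library 3 it was -40.7, and the groups came apart because that library alone had made them overlap. Without sgRosa library 1 it was -21.7 (exact permutation p = 0.0857), with the strongest 26932 peaks -13 (exact permutation p = 0.143) and with only peaks of q under 0.05 -1.75 (exact permutation p = 0.771).

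Cntn3, Cntn4, Cntn5 and Cntn6 are the contactins known to bind the receptor phosphatase Ptprg. At Cntn5, which is known for its role in synapses of the auditory pathway, there were 18, 24, 14 and 21 peaks in sgNr2f2 libraries 1 to 4 and 28, 29, 39 and 32 in sgRosa libraries 1 to 4. Every sgNr2f2 library was below every sgRosa library, so Cntn5 was the gene called. It averaged 19.25 ± 4.27 peaks in sgNr2f2 libraries and 32 ± 4.97 in sgRosa libraries (SD, n = 4 each), a ratio of 0.602 (exact permutation p = 0.0286, adjusted p = 1). Without sgRosa library 3 the exact permutation p was 0.0571, past the threshold, though the groups of 4 and 3 libraries still did not overlap. The call was lost in the full lists (exact permutation p = 0.429). The means there were 34.0 ± 18.1 in sgNr2f2 libraries and 52.0 ± 28.2 in sgRosa libraries (SD, n = 4 each). It was also lost in full lists scaled to equal length (p = 0.0571), with the strongest 26932 peaks (p = 0.114) and with only peaks of q under 0.05 (p = 0.229), all by exact permutation.

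Cntn4 had 33, 34, 18 and 19 peaks in sgNr2f2 libraries and 44, 36, 32 and 39 in sgRosa libraries. Only the first 2 sgNr2f2 libraries reached the lowest sgRosa library (difference -11.75, exact permutation p = 0.0857). With the strongest 26932 peaks the groups were apart (difference -7.75, exact permutation p = 0.0286). In that setting 19 of 3855 genes tested were called lower and 47 higher, and Cntn5 was not called. Cntn6, which takes part in synapse formation in the cerebellum, had 7, 4, 2 and 6 peaks in sgNr2f2 libraries and 19, 15, 12 and 5 in sgRosa libraries. Here sgRosa library 4 alone lay among the sgNr2f2 values, the ratio of means was 0.373 and the exact permutation p was 0.0857. Without that library the difference was -10.6 peaks, and the groups came apart because it alone had made them overlap. Cntn3 had 7, 13, 5 and 5 peaks in sgNr2f2 libraries and 22, 10, 9 and 10 in sgRosa libraries, with an overlap through sgNr2f2 library 2 and an exact permutation p of 0.2.

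The Cntnap5 genes, mouse relatives of the single human CNTNAP5 whose products are neurexin-like membrane proteins, differed in both directions. Cntnap5a had 18, 27, 16 and 20 peaks in sgNr2f2 libraries and 32, 13, 12 and 16 in sgRosa libraries. Cntnap5b had 5, 31, 15 and 5 in sgNr2f2 libraries and 24, 22, 18 and 13 in sgRosa libraries. Cntnap5c had 10, 17, 9 and 24 in sgNr2f2 libraries and 5, 15, 11 and 18 in sgRosa libraries. In each the groups overlapped over most of their range, with differences of 2, -5.25 and 2.75 peaks in that order and exact permutation p values of 0.714, 0.457 and 0.629. The Cntnap5b difference was -10.9 without sgNr2f2 library 2 and -2.25 without sgNr2f2 library 1 or without sgNr2f2 library 4.

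By limma with a trend on log2(peaks + 1), which pools the spread over genes, 3 of the 10 genes were lower and 1 higher in sgNr2f2 libraries at an unadjusted p under 0.05, where 1.86% of all genes tested were lower and 4.37% higher. The lower ones were Cntnap2 with a log2 difference of -0.82 (limma adjusted p = 0.577), Cntn6 with -1.22 (limma adjusted p = 0.671) and Cntn5 with -0.72 (limma adjusted p = 0.754). The higher one was Cntn2 with 1.40 (limma adjusted p = 0.713), which had passed the filter only through its sgNr2f2 libraries. No gene in the whole table passed adjustment in limma, the smallest adjusted p being 0.518. The median log2 difference was -0.71 over the 10 genes and 0.15 over all genes.

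The 4 genes on chromosome 6, Cntnap2, Cntn3, Cntn6 and Cntn4, carried most of the difference in the sums. Together they had 95, 100, 55 and 63 peaks in sgNr2f2 libraries 1 to 4 and 190, 136, 101 and 116 in sgRosa libraries 1 to 4. The groups did not overlap, though sgNr2f2 library 2 and sgRosa library 3 were 1 peak apart. No test was made of this sum either, since the genes had been chosen with earlier results known. It holds Cntnap2, whose difference was the most negative of all genes tested. How often like sets of genes separate the groups was not counted. The other 6 genes had 77.25 ± 18.8 peaks in sgNr2f2 libraries and 94.0 ± 10.7 in sgRosa libraries (SD, n = 4 each). Chromosome 6 as a whole also had fewer of the listed peaks, 2906 ± 535 in sgNr2f2 libraries and 3562 ± 478 in sgRosa libraries. The 4 genes held 2.68% ± 0.545 of those in sgNr2f2 libraries and 3.78% ± 0.714 in sgRosa libraries, and the shares overlapped, 3.35% in sgNr2f2 library 2 being above 3.08% and 3.25% in sgRosa libraries 3 and 4.

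The megabase on either side of the genes differed between the groups too. The flanks of 7 of the 10 genes had a lower mean in sgNr2f2 libraries, and in 8 of the 10 the gene and its flanks differed in the same direction. At Cntn5 the flanks held 39, 16, 24 and 44 peaks in sgNr2f2 libraries and 49, 38, 39 and 41 in sgRosa libraries, overlapping through sgNr2f2 libraries 1 and 4. At Cntnap2 they held 33, 35, 35 and 25 in sgNr2f2 libraries and 42, 36, 41 and 54 in sgRosa libraries, and these did not overlap (exact permutation p = 0.0286). Only 1 of the 10 genes had flanks at a p under 0.05. The share of all genes whose flanks separate the groups was not counted, so this non-overlap has no background beside it. At Cntn4 the gene differed by -11.4 peaks per Mb and its flanks by -11.8. At Cntn6 the gene differed by -21.0 per Mb and its flanks by -10.4.

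A comparison of gene minus flanks between groups, added after seeing the data, left 0 of the 10 genes called lower or higher, where 1.41% of all genes tested were called lower and 1.68% higher. Cntn5 differed by -4.46 peaks per Mb beyond its flanks (exact permutation p = 0.371) and Cntnap2 by -8.81 (exact permutation p = 0.286). Cntnap5a went the other way, with gene minus flanks at 4.44 ± 6.95 peaks per Mb in sgNr2f2 libraries and -6.75 ± 1.43 in sgRosa libraries (SD, n = 4 each, exact permutation p = 0.0571). Whether the differences at the 10 genes belong to the genes or to the regions around them cannot be told apart by these values.

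**Figure D4:**
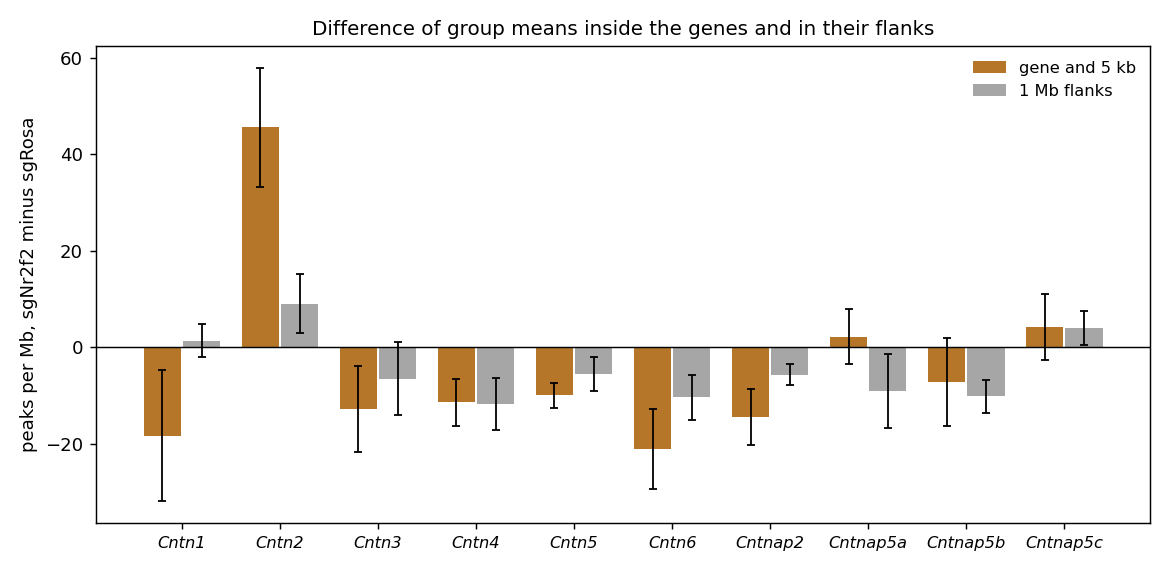
Difference of group means, sgNr2f2 minus sgRosa, in peaks per Mb in each gene with 5 kb around it (brown) and in 1 Mb on either side (grey), with the standard error of the difference from the spread of the 4 libraries of each group. Gene and flanks differ in the same direction at 8 of the 10 genes, the exceptions being Cntn1 and Cntnap5a. The share over all genes tested was not counted.

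In the full lists the 10 genes had 2351 of 648917 peaks, with 292, 385, 150 and 137 in sgNr2f2 libraries 1 to 4 and 360, 268, 214 and 545 in sgRosa libraries 1 to 4. The highest sum was in sgRosa library 4, which had the longest list, and the lowest in sgNr2f2 library 4, which had the shortest. As a share of the full list they were 0.292% ± 0.0707 in sgNr2f2 libraries and 0.432% ± 0.0949 in sgRosa libraries (SD, n = 4 each). No gene of the 10 was called in the full lists, against 0.264% of genes tested called lower and 0.616% higher, and 9 of the 10 had a lower mean in sgNr2f2 libraries, Cntn2 being the exception. In these lists 38.7% of all genes tested and 61.4% of the 223 tested genes of at least 500 kb had a lower mean. Cntnap2 had 84, 95, 39 and 33 peaks in sgNr2f2 libraries and 130, 90, 54 and 182 in sgRosa libraries (exact permutation p = 0.143).

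The same position was rarely listed in more than 1 library. Overlapping peaks of the 8 equal lists formed 1453 regions at the 10 genes, of which 1371 were in 1 library, 76 in 2, 6 in 3 and none in 4 or more. The share in 2 or more libraries was 5.64% (95% Wilson interval 4.57 to 6.95%, counting error only), against 5.13% of 405567 regions over the genome. With the strongest 26932 peaks per library it was 2.82%, against 3.05% over the genome, and with only peaks of q under 0.05 it was 0.455%, against 1.98%. Regions in 4 or more libraries made up 0.163% of the genome's and, as the plot of recurrence shows, 230 genome regions were in all 8. Cntn1 had 7 of 67 regions in 2 or more libraries (10.4%), Cntn4 18 of 237 (7.59%), Cntnap2 27 of 418 (6.46%), Cntn5 7 of 197 (3.55%) and Cntnap5c 2 of 107 (1.87%).

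**Figure D5:**
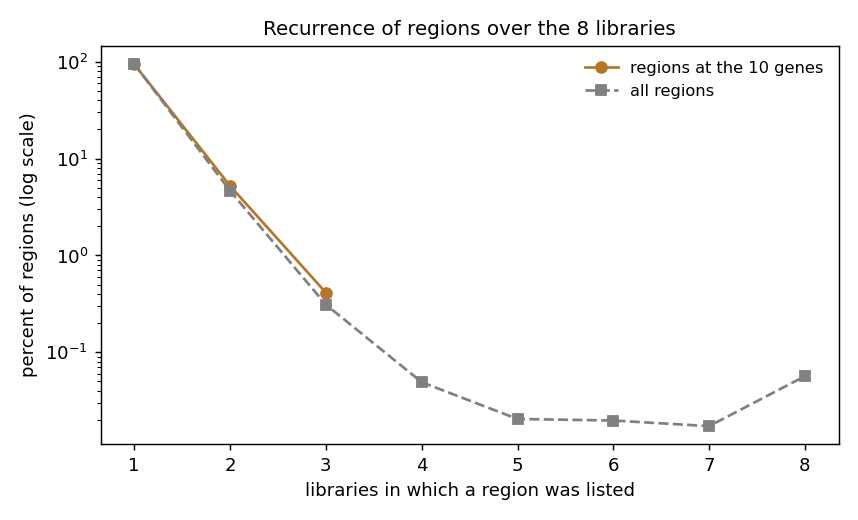
Percent of regions (log scale) by the number of libraries in which they were listed, for the regions at the 10 genes and for all regions of the genome, in lists of equal length. The curve of the 10 genes ends at 3 libraries, with 0.413% of regions, while the genome curve goes on to 8.

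The 6 regions in 3 libraries were 5 in Cntnap2 and 1 in Cntn5. In Cntnap2, chr6:45291808-45292245 was listed in sgRosa libraries 2, 3 and 4 and in no sgNr2f2 library, and the other 4 were each listed in both groups. The Cntn5 region, chr9:10814915-10815353, was in sgNr2f2 library 4 and in sgRosa libraries 2 and 4, with −log10 p between 4.08 and 5.25. Of pairs of libraries in regions listed in exactly 2, 11 were both sgNr2f2, 26 both sgRosa and 39 1 of each. The sgRosa libraries also held more peaks at the 10 genes, 229.75 on average against 155.5, which leaves more peaks to pair. The pairs were not set against those of the genome. In the full lists 1 region reached 4 libraries, chr6:45358863-45359728 in Cntnap2, in sgNr2f2 libraries 1, 2 and 4 and sgRosa library 4, with −log10 p from 2.03 to 4.68. No position at the 10 genes therefore marked one group throughout while missing from the other group.

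Binding partners and relatives of the 10 genes were counted in the same way. Of 18 such genes on a list, 15 passed the filter and 0 were called in either direction. Of the 15, 10 had a higher mean in sgNr2f2 libraries, 3 a lower one and 2 an equal one, with a median difference of 1 peak. Kcna2, counted as higher, passed the filter only through its sgNr2f2 libraries (means 2 and 0.25). Its higher count is therefore no support for a difference. Over all 8077 genes tested, 54.2% had a higher mean and 36.5% a lower one, with a median of 0.25, and 1.26% were called higher and 0.508% lower. The largest differences were at Dlg2, which encodes a scaffold of synapses, and Tnr, which encodes the matrix protein tenascin-R. Dlg2, 1973 kb long, had 49, 52, 32 and 58 peaks in sgNr2f2 libraries and 43, 32, 50 and 32 in sgRosa libraries, with the groups overlapping (exact permutation p = 0.314). Tnr had 17, 16, 14 and 13 in sgNr2f2 libraries and 11, 5, 3 and 14 in sgRosa libraries, overlapping through sgRosa library 4 (exact permutation p = 0.0857). The list also holds contactin-associated protein genes outside the 10. Cntnap4 was higher in sgNr2f2 libraries, with 7, 10, 11 and 13 peaks, against 3, 7, 3 and 5 in sgRosa libraries (exact permutation p = 0.0571). Cntnap3 was lower, with means of 1.75 and 4.25 (exact permutation p = 0.257), and Cntnap1 did not pass the filter.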

How the data were processed

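ATAC-seq peak lists of 8 libraries of isolated amygdala neurons were used, 4 per group by their titles, on build mm10. Tools named in the submitters' processing notes are MACS2 2.2.9.1, HOMER 4.10, DiffBind 3.10.0, fastp 0.23.2, Picard, MultiQC 1.11 and FastQC 0.11.9. The aligner, the handling of duplicates, the Tn5 shift and the calling options are not given in the sources used here. Each list has its own intervals, so peaks were called per library. Each deposited line holds the authors' integer score, a fold enrichment (a ratio over background) at the summit, and −log10 p and −log10 q. The deposited score was not used further. The study's design text gives 4 mice per group.

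Where 1 interval had several summits the strongest was kept (3499 lines removed). The strongest 53864 peaks per library were kept by −log10 p, with ties kept in the order of the deposited list. Many peaks share a value. In sgNr2f2 library 2 the lowest −log10 p kept, 3.16, was also the median of its full list. The effect of the order of ties on the counts was not tested. Peaks were counted per protein-coding gene of RefSeq's GRCm38.p6 table with 5 kb on each side. Genes with a mean under 1 were not tested. Group differences were tested by two-sided exact permutation (70 assignments) and density by exact sign flips over 8 libraries (256, smallest p 0.0078), both adjusted by Benjamini-Hochberg over all 8077 genes. limma 3.58.1 (R 4.3.3) was an alternative. Regions joined peaks overlapping by at least 1 bp. The permutation tests were tried on simulated counts and densities per gene, and the joining of regions on small made-up lists. Strand came from the promoter table, so Cntnap5a and Cntnap5c are read from the low coordinate. The software was Python 3.11.15 with scipy 1.17.1, pandas 2.3.3, matplotlib 3.10.9 and numpy 2.4.6. Named were all 10 genes, partner genes called or the 2 with the largest difference, and regions in 4 or more libraries. The regions in 3 libraries, the strongest peaks and the genes Cntnap1, Cntnap3, Cntnap4 and Kcna2 were named after their values were seen. Members, lists and tests were chosen with earlier results of these data known.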

Additional observations from a re-analysis of the deposited data

Results flagged for a closer look

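In groups of 4 libraries, 1 library stood apart from the other 3 in 3 of 42 groups examined. For normally distributed values chance marks about 1 group in 20, a rate that need not hold for small tied counts such as these. At Cntn3, sgRosa library 1 had 22 peaks where the other sgRosa libraries had 9 to 10. At Cntn2, sgRosa library 2 had 1 peak where the others had 0, so that flag rests on 1 peak. In Cntn6, the density minus that of the flanks was -12.4 peaks per Mb in sgRosa library 4, where the other sgRosa libraries had 9.90 to 12.4.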

How the results depend on the processing

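Of 190 recalculations of the group difference at single genes, 163 kept direction and side of the threshold, and of 180 of the density, 150 did. The cause of the changes was not tested. Read depth is unknown, and 14.3% of the peaks at the 10 genes had a q under 0.05.

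Genes called higher and lower in sgNr2f2 libraries were 102 and 41 of 8077 tested. These became 47 and 19 with shorter lists (26932 peaks, 3855 genes) and 1 and 0 with peaks of q under 0.05 (812 genes). Windows of 20 kb gave 191 and 73 (15842 genes), and a mean of at least 2 gave 61 and 22 (3593 genes). Full lists scaled to equal length gave 194 and 73 (7577 genes). Lower calls became 68 with a minimum of 0.5 or none, and 114 for gene minus flanks. With 1 library left out, they ran from 72 to 192 and from 33 to 70 (163 and 192 higher without sgNr2f2 1 and 2; 69, 62 and 70 lower without sgRosa 1, 3 and 4). limma without the replicate block gave 353 and 150. Replicate numbers did not pair the libraries (correlations of deviations -0.0053 to 0.0117), and limma with the replicate block gave 348 and 154, with Cntnap2 at a limma adjusted p of 0.647.

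Genes denser and sparser than flanks (458 and 203) became 274 and 62 with the shorter list, 114 and 14 with q under 0.05 and 270 and 87 with a mean of at least 2. Sparser genes were 308 with 20 kb windows and denser ones 727 with flanks stripped of genes. Leaving out 1 library gave 356 to 438 and 163 to 182.

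The summed difference was -11.8 with q under 0.05 and -90.4 to -51.2 with 1 library left out. Recurrence at the 10 genes was 7.51% in full lists (genome 6.91%) and 10.2% when intervals within 200 bp joined (8.69%). It was below the genome value in shorter lists (2.82%, 3.05%), with q under 0.05 (0.455%, 1.98%) and when summits within 100 bp joined (3.08%, 3.13%). With 1 library left out it was 4.29 to 5.46% (4.37 to 4.64%), and below the genome value without sgRosa 2 (4.29%, 4.46%) or sgRosa 4 (4.62%, 4.64%).

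Differences between groups turned sign at Cntnap5a (-3.75 full lists, -0.25 shorter lists, -0.5 with q under 0.05, -1.47 scaled lists, -0.25 to 6.58 with 1 library left out), at Cntnap5c (-0.25 full lists, -0.25 to 4.75 with 1 left out), at Cntn3 (0.25 with q under 0.05) and, for gene minus flanks, at Cntn4 (0.37 per Mb) and Cntnap5b (2.92 per Mb). Density against flanks turned sign at Cntn6 (0.0596 by fold order, 0.612 with 20 kb, -2.15 to 1.39 with 1 left out), Cntn2 (-1.27 with q under 0.05, -4.93 with 20 kb, -1.40 to 7.60 with 1 left out), Cntnap2 (-0.176 with q under 0.05), Cntnap5b (-0.379 with q under 0.05, -1.42 with 500 kb flanks, -0.994 to 2.39 with 1 left out), Cntnap5c (0.179 with 500 kb flanks, 0.213 with flanks stripped of genes) and Cntnap5a (1.13 with 2 Mb flanks).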
